A study of Drosophila melanogaster with 10 samples.

Results

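Contractile genes of larval striated muscle were followed in RNA of wing disks, a tissue whose own epithelium builds no sarcomeres. The members were 9 genes, *Mhc*, *Mlc1*, *Mlc2*, *Act57B*, *Tm2*, *up*, *wupA*, *bt* and *sls*, taken by their FlyBase symbols from the 17807 gene IDs of the raw count table, and read in all 10 libraries. They were chosen to describe how much muscle-type RNA each library held. All 9 passed the expression filter of the test, which kept 9264 genes. A group of 8 genes varied together from library to library, while *sls* went the other way.

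The sarcomere is the repeating contractile unit of striated muscle, in which myosin thick filaments pull on actin thin filaments. Tropomyosin and the troponin complex lie along the thin filament and let calcium switch the pull on and off, and giant titin-like proteins tie the filaments to the Z disc. In a late larva these genes are used by body wall muscles, whereas the wing disk carries undifferentiated muscle precursors that form flight muscle only in the pupa.

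The disks came from late larvae in which *MS1096‐Gal4*, a driver active in the central wing pouch, expressed a transgene. The GFP group expressed GFP alone and the Nkd group full-length Nkd (Nkd_GFPC in the labels). The other groups expressed Nkd without the Dsh-binding R1S region (NkdΔR1S, labelled Nkd_del_R1S_GFPC), or without either of the stretches called 30aa (NkdΔ30aa, Nkd_del_30aa_GFPC) and D6 (NkdΔD6, Nkd_del_D6_GFPC), both described as potential nuclear localization signals. Each group had 2 samples of about 70 disks from animals kept at 25 °C, and no removal of the native *nkd* gene is described for any group. The methods describe the samples of a group as biological duplicates without saying whether crosses were separate. The p-values therefore compare groups with the spread of these samples only, which may be technical in part.

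Levels are counts scaled to a common library size by the trimmed mean of M values (TMM) and given as CPM, and levels of different genes are compared only per kilobase of exon (RPKM). Libraries held 18695697 to 20941842 counts. Counts of *nkd*, which include the transgene, fitted the labels, with 37.3 and 70.0 CPM in the GFP libraries. They were 345 and 512 CPM in the NkdΔR1S libraries and 992 to 1498 CPM in those of the other Nkd forms. Against Nkd, *nkd* in NkdΔR1S was at -1.44 ± 0.32 on the log2 scale (adjusted p = 0.115, edgeR). The authors state that varying transgene levels stand in the way of quantitative comparison between mutants. Salivary gland genes summed to 16078 CPM in replicate 1 of the Nkd disks and to 203 CPM in replicate 2, the widest gap of any tissue list between 2 libraries of a group in CPM. Counts of long genes relative to short ones also differed between libraries. The rank correlation over genes between exon length and the deviation of a library from the all-library mean ran from -0.62 in replicate 1 of the GFP disks to 0.62 in replicate 1 of the NkdΔ30aa disks.

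*Mhc* (FBgn0264695, BDGP6 2L:16766566-16788766, 9058 bases of merged exons) encodes the only muscle myosin heavy chain of the fly, the motor of the thick filament. Its level was 6.10 and 7.26 CPM in replicates 1 and 2 of the GFP disks, 12.8 and 2.68 in the Nkd disks, 2.99 and 2.10 in the NkdΔR1S disks, 2.74 and 4.14 in the NkdΔ30aa disks, and 22.9 and 8.24 in the NkdΔD6 disks. Replicate 1 of the NkdΔD6 disks stood highest, 10.9-fold above replicate 2 of the NkdΔR1S disks. Both NkdΔD6 libraries lay above both GFP libraries, and both NkdΔR1S and both NkdΔ30aa libraries lay below them.

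*Mlc1* (FBgn0002772, 3R:27657078-27660177) and *Mlc2* (FBgn0002773, 3R:30171438-30174551) encode the alkali and the regulatory light chain that sit on the neck of that motor. *Mlc2* measured 112 and 88.2 CPM in the GFP disks, 125 and 49.1 in the Nkd disks, 75.4 and 35.0 in the NkdΔR1S disks, 41.6 and 34.7 in the NkdΔ30aa disks, and 135 and 85.9 in the NkdΔD6 disks. *Mlc1* measured 15.2 and 13.7 CPM in the GFP disks, 24.7 and 6.58 in the Nkd disks, 12.8 and 5.72 in the NkdΔR1S disks, 5.47 and 3.02 in the NkdΔ30aa disks, and 25.1 and 13.0 in the NkdΔD6 disks. Both light chains were highest in replicate 1 of the NkdΔD6 disks and lowest in replicate 2 of the NkdΔ30aa disks. The Nkd libraries spanned the GFP values for both, and so did the NkdΔD6 libraries.

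*Act57B* (FBgn0000044, 2R:20944021-20946431) encodes a muscle actin, the body of the thin filament. It measured 35.5 and 34.3 CPM in the GFP disks, 63.8 and 14.5 in the Nkd disks, 20.4 and 26.7 in the NkdΔR1S disks, 30.9 and 25.1 in the NkdΔ30aa disks, and 85.7 and 37.4 in the NkdΔD6 disks. Replicate 1 of the NkdΔD6 disks was again highest, but the lowest library was replicate 2 of the Nkd disks, and the NkdΔ30aa values lay close under those of GFP. The 6 fly actins are near-identical in coding sequence and the handling of reads that map to several genes is not stated in the methods, so how reads were split among them is uncertain, and 5.57% of its exon bases overlap a small nucleolar RNA on the same strand.

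*Tm2* (FBgn0004117, 3R:15310193-15315197) encodes muscle tropomyosin, the strand that covers the myosin sites on actin. It measured 22.5 and 17.4 CPM in the GFP disks, 36.8 and 7.80 in the Nkd disks, 12.9 and 7.77 in the NkdΔR1S disks, 6.19 and 4.32 in the NkdΔ30aa disks, and 18.2 and 12.5 in the NkdΔD6 disks. Replicate 1 of the Nkd disks was highest by a wide margin and both NkdΔ30aa libraries were lowest, with no overlap between the NkdΔ30aa and GFP values. *up* (FBgn0004169, X:13593474-13602578), which encodes troponin T, and *wupA* (FBgn0283471, X:18105568-18116922), which encodes the inhibitory subunit troponin I, followed it closely. *up* ran from 5.44 CPM in replicate 2 of the NkdΔ30aa disks to 40.3 in replicate 1 of the Nkd disks with a median of 14.2, and *wupA* from 5.16 to 38.2 CPM between the same libraries with a median of 15.3.

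*bt* (FBgn0005666, chromosome 4, 724400 to 776474), also called projectin, and *sls* (FBgn0086906, 3L:2039681-2115611), which encodes the titin-like proteins of the Z disc and I band, are giant genes with 28019 and 58996 bases of merged exons. *bt* was the scarcest member, with 15 to 57 reads in a library, and measured 2.44 and 1.80 CPM in the GFP disks, 2.83 and 0.877 in the Nkd disks, 1.81 and 1.79 in the NkdΔR1S disks, 0.912 and 0.697 in the NkdΔ30aa disks, and 2.16 and 1.68 in the NkdΔD6 disks. *sls* measured 8.60 and 11.6 CPM in the GFP disks, 12.8 and 21.5 in the Nkd disks, 16.9 and 15.2 in the NkdΔR1S disks, 28.5 and 32.6 in the NkdΔ30aa disks, and 29.0 and 22.7 in the NkdΔD6 disks. Its GFP libraries were the lowest of the 10 and lay below every other library, and its NkdΔ30aa libraries, where *bt* was near its lowest, were among the 3 highest. Of the exon bases of *sls*, 1.85% lie opposite an antisense RNA gene, and the methods do not state whether the counting used strand.

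**Figure D1:**
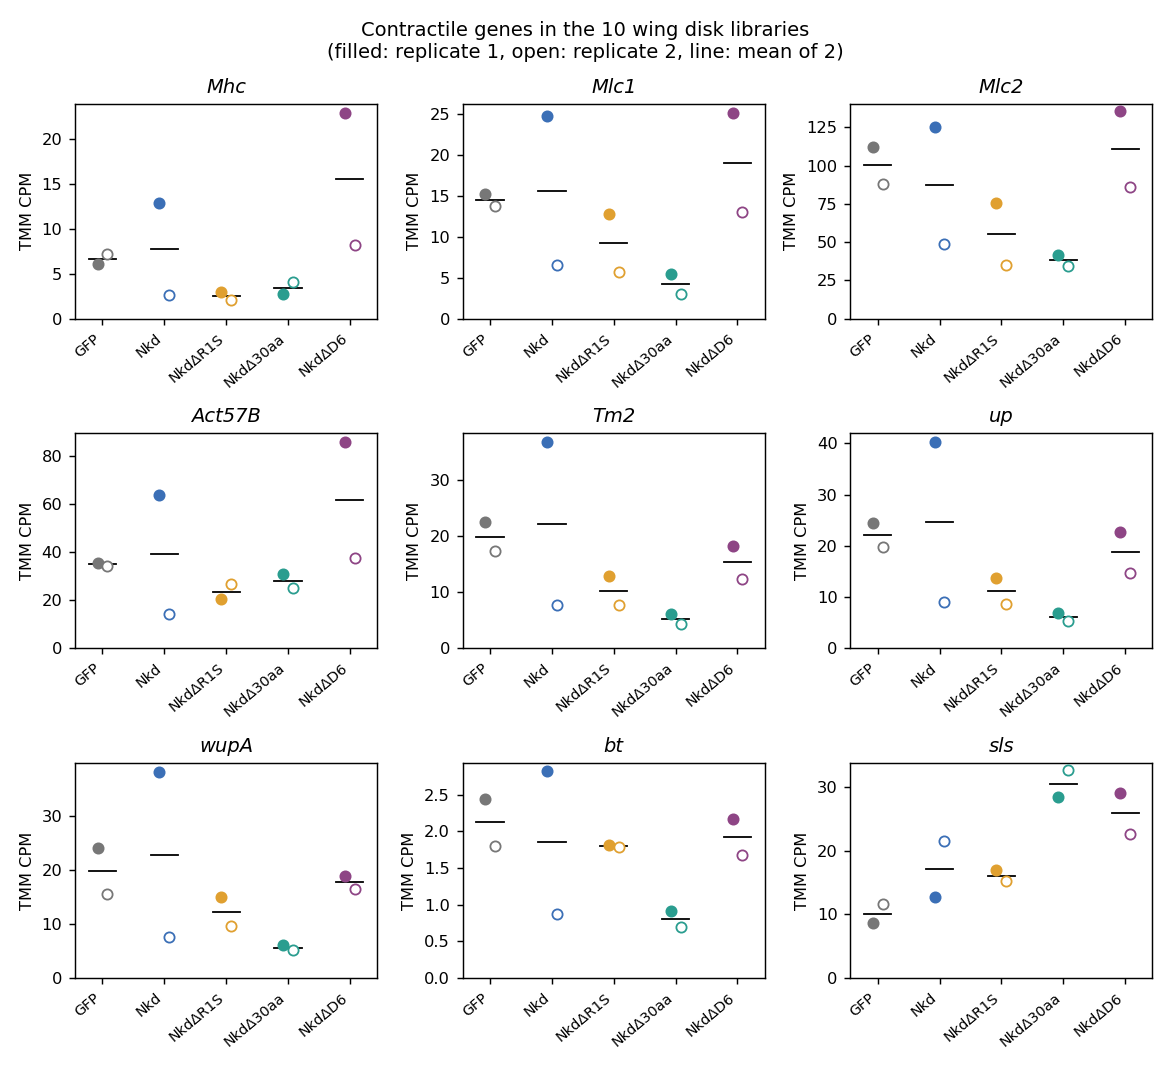
Level of each of the 9 contractile genes in CPM (linear axes that start at 0), with replicate 1 filled, replicate 2 open and a line at the mean of the 2 libraries of each group. Replicate 1 of the Nkd disks lies far above replicate 2 for 8 genes, and the NkdΔ30aa libraries lie below the GFP libraries for the same 8 genes. *sls* is lowest in GFP disks and has its highest mean in NkdΔ30aa disks.

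Per kilobase of exon, the light chain *Mlc2* was the most abundant member, with a mean of 34.2 RPKM over the 10 libraries. *Act57B* followed at 21.7 RPKM, *Mlc1* at 8.86, *wupA* at 7.92, *up* at 6.56, *Tm2* at 5.60, *Mhc* at 0.795, *sls* at 0.338 and *bt* at 0.0606 RPKM. The ranges of *Mlc1*, *wupA*, *up* and *Tm2* overlapped across libraries. Within a library, however, *Tm2* was below *up* in all 10 libraries, at a ratio of 0.770 to 0.912, and *up* was below *wupA* in all 10, at 0.700 to 0.997. Merged exons count the alternative exons of all transcripts, 21 transcripts for *Mhc*, so the level per length of such a gene is spread over bases that no single transcript holds.

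The 9 genes together summed to between 113 CPM in replicate 2 of the NkdΔR1S disks and 360 CPM in replicate 1 of the NkdΔD6 disks, a 3.20-fold range. The sums were 251 and 210 CPM in the GFP disks, 358 and 120 in the Nkd disks, 172 and 113 in the NkdΔR1S disks, 129 and 115 in the NkdΔ30aa disks, and 360 and 213 in the NkdΔD6 disks. The Nkd libraries alone differed 2.99-fold, whereas the NkdΔ30aa libraries were both low and differed 1.12-fold. *Mlc2* made up 30.1% to 44.7% of the sum and *Act57B* 11.9% to 23.9%, so these genes weigh most in the sum. In bulk RNA, fewer muscle cells and less muscle RNA per cell cannot be told apart.

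Between the samples of a group, the Nkd disks stood out. In them, 8 of 9 members were over 2-fold higher in replicate 1 than in replicate 2, against 11.5% of the 9264 genes tested. The ratios ran from 2.56 for *Mlc2* to 5.09 for *wupA*, with *Mhc* at 4.79, *Tm2* at 4.72, *up* at 4.47 and *Act57B* at 4.41, while *sls* was lower in replicate 1, at 0.594. Replicate 1 of the Nkd disks also held more of other larval tissues than replicate 2. Gut genes summed to 3429 against 30.1 CPM and fat body genes to 3445 against 839 CPM there, with every salivary gland, gut and fat body marker detected in at least 1 library. Whether these tissues have a part in the gap in muscle genes was not tested.

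In the NkdΔR1S disks, 2 members passed 2-fold between replicates, *Mlc1* at 2.23 and *Mlc2* at 2.16, against 6.82% of genes. In the NkdΔD6 disks these were *Mhc* at 2.78 and *Act57B* at 2.29, against 2.87% of genes. No member passed it in the GFP or NkdΔ30aa disks, against 6.62% and 5.20% of genes that were higher in replicate 1. *Mlc1*, *Mlc2*, *up*, *wupA*, *Tm2* and *bt* were higher in replicate 1 in each of the 5 groups, a pattern seen in 3.48% of the genes tested. The labels do not say what the replicate numbers stand for.

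Over the 10 libraries, the log2 levels of 8 members followed the mean of the other members, with a Pearson r of 0.95 for *Mlc1* and *Mlc2*, 0.94 for *up*, 0.91 for *Tm2* and *wupA*, 0.84 for *Mhc*, 0.83 for *bt* and 0.79 for *Act57B*. For *sls* it was -0.47. These values describe libraries that share scaling and groups, and are given with no test. The RPKM ratios show how close the thin filament genes kept. *Tm2* to *up* moved 1.19-fold between the lowest and the highest library and *up* to *wupA* 1.42-fold, although each gene alone moved 7.40-fold to 8.51-fold.

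Other pairs drifted further. *Mlc2* to *Mlc1* lay between 3.14 in replicate 1 of the Nkd disks and 7.10 in replicate 2 of the NkdΔ30aa disks. *Act57B* to *Tm2* lay between 2.39 and 8.80, with both NkdΔ30aa libraries and replicate 1 of the NkdΔD6 disks above 7. *Mhc* to *Tm2* moved 5.41-fold, from 0.0671 in replicate 1 of the NkdΔR1S disks to 0.363 in replicate 1 of the NkdΔD6 disks. Both myosin heavy chain and actin were high relative to tropomyosin in the NkdΔD6 disks, where *Mhc* to *Tm2* was 0.363 and 0.191 against 0.0782 and 0.121 in GFP disks, and *Act57B* to *Tm2* 7.13 and 4.55 against 2.39 and 3.00. *sls* to *Tm2* moved 21.7-fold and *sls* to *Mhc* 10.4-fold, wider than any ratio computed among the other 8.

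**Figure D2:**
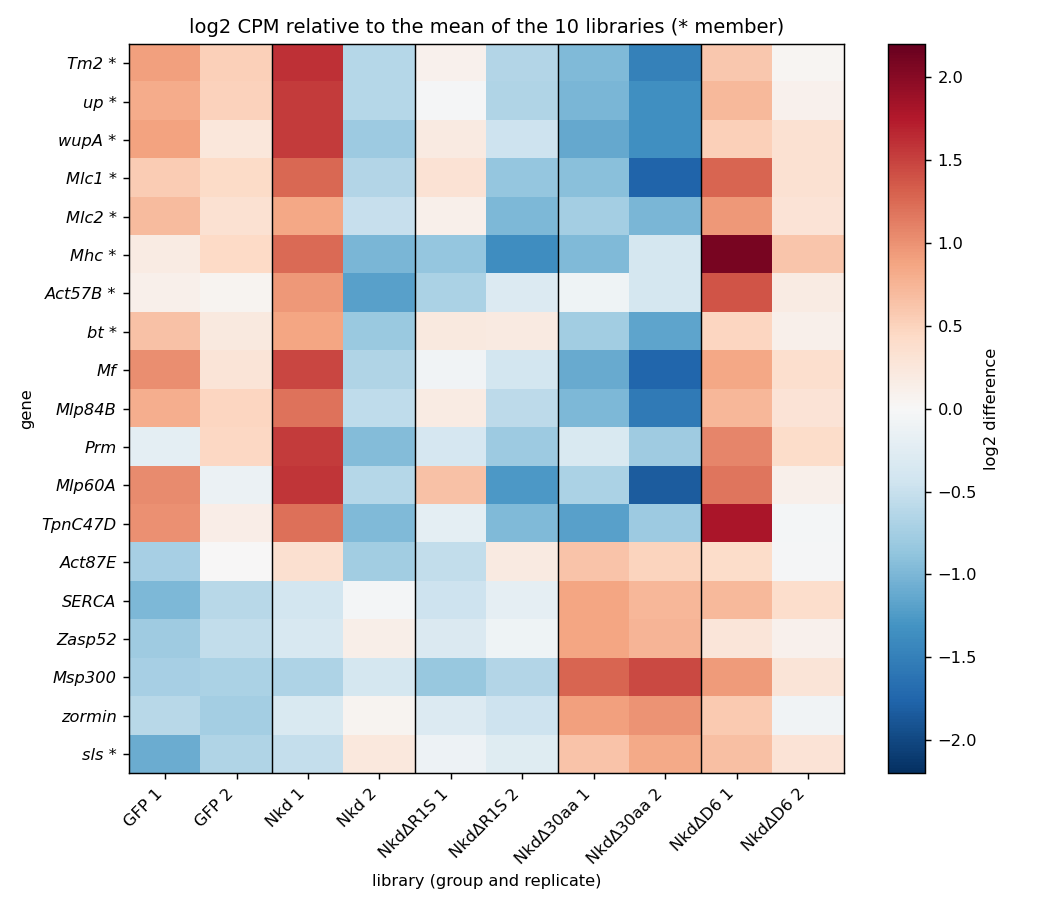
Log2 CPM of members (marked *) and other muscle genes in each library, relative to the gene's mean over the 10 libraries (red higher, blue lower). The upper rows, down to *TpnC47D*, are red in replicate 1 of the Nkd disks and blue or near white in the NkdΔ30aa disks, while *SERCA*, *Zasp52*, *Msp300*, *zormin* and *sls* in the lower rows are red in the NkdΔ30aa disks and blue in the GFP disks.

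The genes whose pattern over the 10 libraries was most like the mean of the members were then ranked among all genes tested. The first 10 that are not members were *Mp20* at an r of 0.97, *hlk* at 0.96, *TpnC47D*, *Mlp84B* and *Mf* at 0.95, 0.95 and 0.94, *Lcp65Ab1* at 0.93, *PH4alphaPV*, *Mlp60A* and *Prm* at 0.92, and *Cpr60D* at 0.91. Of these, *TpnC47D* (a troponin C), *Mlp84B* and *Mlp60A* (muscle LIM proteins), *Mf* (myofilin of the thick filament) and *Prm* (paramyosin, its core) belong to the 32 other muscle genes that were listed and tested. *Mp20* encodes a calponin-like muscle protein, and *Lcp65Ab1* and *Cpr60D* encode cuticle proteins. *hlk* and *PH4alphaPV* were near the floor, with 0.42 to 1.44 and 0 to 1.78 CPM in a library, so their r rests on few reads. *Mf* kept a nearly constant RPKM ratio to *Tm2*, between 0.308 and 0.461.

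Not all muscle genes followed. *Act87E*, another larval muscle actin, had an r of 0.01 and measured 6.63 to 17.4 CPM, so that its RPKM ratio to *Act57B* ran from 0.152 in replicate 1 of the NkdΔD6 disks to 0.552 in replicate 2 of the NkdΔ30aa disks. Genes that define flight muscle were at or near 0. *Act88F*, the flight muscle actin, had 0 to 4 reads in a library, *fln*, a flight muscle thick filament protein, 0 to 3, *TpnC4* 0 to 4 and *Act79B*, an adult tubular muscle actin, 0 to 1. Of the 5 genes in that list, *salm* made up nearly the whole summed level of 29.1 to 137 CPM. It is also a patterning gene of the wing pouch.

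Against GFP, full-length Nkd left the contractile genes without a common direction. No member was called, where a call needs more than 1.5-fold change and an adjusted p below 0.05 in edgeR's quasi-likelihood test, and 7.57% of the genes tested were called in either direction. The median log2 change of the 9 was 0.16, against -0.05 over all genes. *Mhc* was at 0.22 ± 0.72 (standard error), *Tm2* at 0.16 ± 0.66, *Mlc2* at -0.20 ± 0.54 and *sls* at 0.77 ± 0.26, with adjusted p = 0.0725 for *sls* and 0.832 or more for the others. At an unadjusted p under 0.05 the only member was *sls*, among 6.42% of genes that were higher, and DESeq2 called it as well, where 10.6% of the genes it tested were called higher. Both Nkd libraries of *sls* lay above both GFP libraries, as in 28.2% of genes. The direction of the rest turned on which Nkd library was read, since without replicate 1 of the Nkd disks the median was -1.16 and 8 members were negative, and without replicate 2 it was 0.95 and none was.

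In the NkdΔR1S disks 8 of 9 members had a negative estimate and none was called, against 0.173% of all genes in either direction. The median was -0.69, against -0.03 over all genes. *Mhc* had the lowest estimate, -1.39 ± 0.74 (adjusted p = 0.328, edgeR), followed by *up* at -0.99 ± 0.65 and *Tm2* at -0.95 ± 0.67. Both NkdΔR1S libraries lay below both GFP libraries for 7 members, all but *bt* and *sls*, where 26.5% of all genes did so. For *sls* both lay above, which 20.9% of genes did, and it was the only member at an unadjusted p under 0.05, with an estimate of 0.67 ± 0.26, among 4.64% of genes that were higher. DESeq2 called no member. Among markers of other larval tissues, estimates were negative for 10 of 10 salivary gland genes (median -3.51), 7 of 7 hemocyte genes (-0.41) and 7 of 8 fat body genes (-0.32). They were negative for 4 of 8 gut genes (-0.50), 4 of 7 trachea genes (-0.17) and 1 of 5 neuron genes (0.20). None of these markers was called. Their part in the estimates of the muscle genes was not tested.

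For 6 members, *Mlc1*, *Mlc2*, *up*, *wupA*, *Tm2* and *bt*, the NkdΔ30aa disks had the lowest group mean. The estimates of the thin filament regulators were -1.92 ± 0.70 for *Tm2*, -1.84 ± 0.66 for *up* and -1.82 ± 0.70 for *wupA*, and those of the light chains -1.77 ± 0.71 for *Mlc1* and -1.40 ± 0.55 for *Mlc2*. *bt* was at -1.39 ± 0.58, *Mhc* at -0.96 ± 0.73 and *Act57B* at -0.32 ± 0.70. None of these was called lower, against 12.8% of all genes. *Tm2*, *up*, *wupA*, *Mlc1*, *Mlc2* and *bt* passed at an unadjusted p under 0.05, as did 14.8% of all genes, with adjusted p between 0.0610 and 0.0847 by edgeR. Both NkdΔ30aa libraries lay below both GFP libraries for 8 members, where 42.4% of all genes did so, and the median of the 9 was -1.40 against -0.13 over all genes. Markers of other larval tissues were mixed. Estimates were negative for 7 of 8 gut genes (median -1.89), 6 of 8 fat body genes (-0.96) and 6 of 7 hemocyte genes (-0.37). They were negative for 5 of 10 salivary gland genes (-0.70), 4 of 7 trachea genes (-0.16) and 1 of 5 neuron genes (0.69). Of these markers, 1 trachea gene was called lower. Called higher were 1 gut, 1 fat body, 2 trachea and 1 neuron gene, where 18.2% of all genes were. The part of these tissues in the estimates of the muscle genes was not tested.

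The call of those decreases depended on the setting. With edgeR on the 4 libraries of the 2 groups alone, *Mlc1*, *Mlc2*, *up*, *wupA* and *Tm2* were called lower, with adjusted p between 0.00220 and 0.00877, where 11.2% of the genes tested were called lower. With DESeq2 on all libraries the same 5 were, with adjusted p between 0.00298 and 0.0411, against 11.0% of the genes it tested. With replicate number as a block the same 5 were, where 2872 genes were called in either direction. With RLE scaling or no filter none was called lower, where 2774 and 2747 genes were called in either direction. With a trend on gene length removed *bt* alone was called lower, where 4.72% of all genes were. With 1 of the 4 libraries left out, 8 members stayed negative, with medians of the 9 between -1.58 and -1.21. *Mhc* and *Act57B* were called under no setting tried.

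*sls* rose in the NkdΔ30aa disks, by 1.60 ± 0.26 on the log2 scale (adjusted p = 0.00192, edgeR), where 18.2% of all genes were called higher. Its level was 30.5 ± 2.92 CPM (SD, n = 2 libraries) against 10.1 ± 2.11 in GFP disks, with no overlap, as for 34.6% of genes. Across the 10 libraries it moved with the gene length trend, being lowest where long genes were low. Once a smooth trend on gene length was removed from each library, the call was lost and the estimate reversed to -0.71 (adjusted p = 0.0507), while the estimate of *bt* moved to -3.38 and was then called lower (adjusted p = 0.0160), where 4.72% of all genes were. The trend is poorly determined there, as only 8 of the genes tested are as long as *bt* or longer and 3 as long as *sls* or longer.

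**Figure D3:**
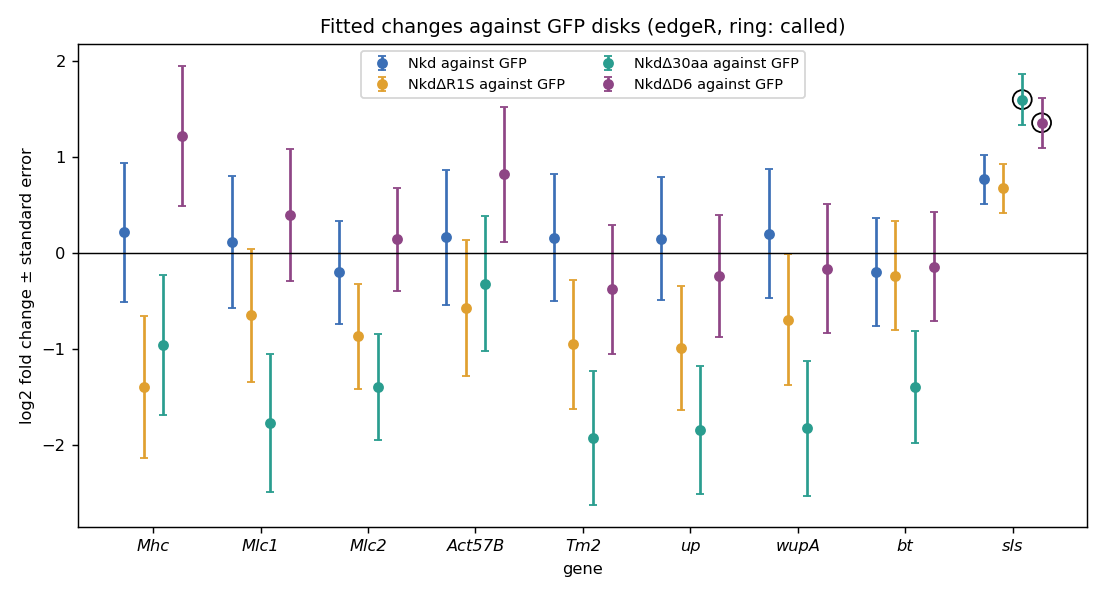
Fitted log2 fold change of each member against GFP, with bars of 1 standard error from edgeR and a ring on each call. The rings lie on *sls* in NkdΔ30aa at 1.60 and in NkdΔD6 at 1.35, and the bars of *Tm2*, *up*, *wupA* and *Mlc1* in NkdΔ30aa lie furthest below 0.

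**Figure D4:**
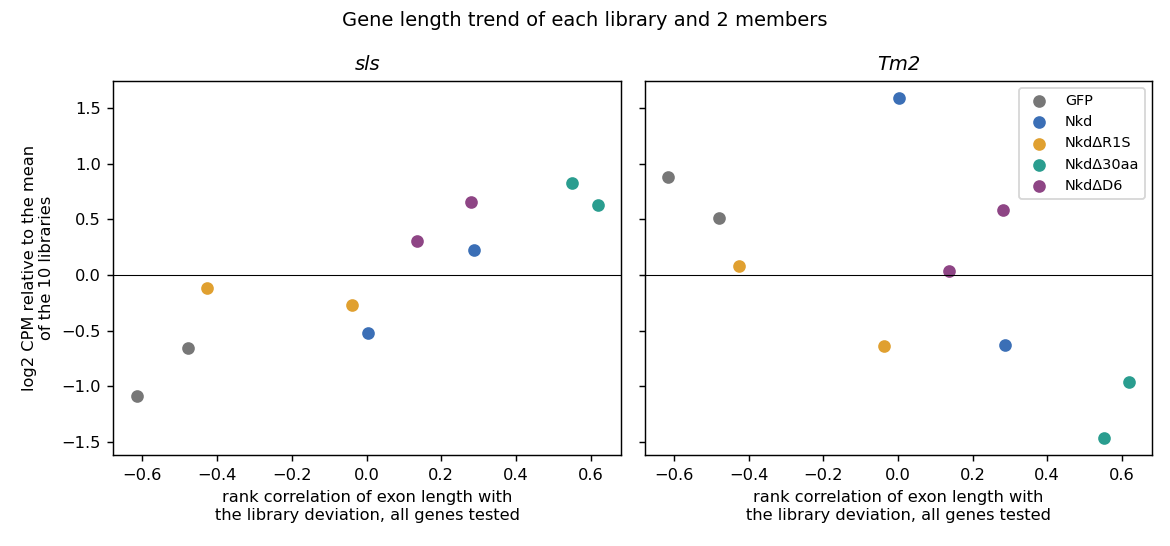
For each library, the rank correlation across the 9264 genes tested of exon length with the library's deviation (horizontal axis) against the log2 CPM of *sls* and *Tm2* relative to their means (vertical axis). *sls* runs from -1.09 in the GFP library with a correlation of -0.62 to 0.82 in an NkdΔ30aa library with one of 0.55, and *Tm2* is highest in a Nkd library with a correlation of 0.0031.

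In the NkdΔD6 disks the members split. *sls* rose by 1.35 ± 0.26 (adjusted p = 0.0122, edgeR), the only member called, where 10.4% of all genes were called higher and 5.81% lower. *Mhc* at 1.22 ± 0.73 and *Act57B* at 0.82 ± 0.70 were also above GFP in both libraries, as were 29.0% of all genes, without passing the test (adjusted p = 0.244 and 0.428). *Tm2*, *up*, *wupA* and *bt* had estimates between -0.38 and -0.14, and the median of the 9 was 0.14 against -0.10 over all genes. The call of *sls* was lost without replicate 1 of the GFP disks and without replicate 1 of the NkdΔD6 disks. Those fits left 1 library in a group and called few genes of any kind, so the loss is not particular to *sls*. With the length trend removed the estimate of *sls* reversed to -0.24. Salivary gland genes had a median of -1.89 here, hemocyte genes -1.01, gut genes 1.43 and neuron genes 0.96, none of them called. Fat body genes had a median of -0.047, with 1 called higher, and trachea genes -0.22, with 2 called higher and 1 lower. The part of these tissues in the split was not tested.

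Against Nkd, which shares its libraries among the next comparisons, no member was called in any deletion group by edgeR. The share of all genes called in either direction was 0.184% for NkdΔR1S, 6.68% for NkdΔ30aa and 0.130% for NkdΔD6. For NkdΔ30aa the estimates of *Tm2*, *wupA* and *up* were -2.08 ± 0.70, -2.03 ± 0.70 and -1.99 ± 0.67 (adjusted p = 0.113, 0.123 and 0.113), and the median of the 9 was -1.20 against 0.005 over all genes. At an unadjusted p under 0.05, 4 members were lower there and 1 higher, against 3.38% and 10.1% of genes. DESeq2 called 4 lower and 1 higher, against 2.55% and 9.29% of the genes it tested. The estimates turned on which Nkd library was read. Without replicate 2 of the Nkd disks edgeR called *Tm2*, *up* and *wupA* lower at adjusted p = 0.0251, where 0.573% of genes were, and without replicate 1 they were at -0.67, -0.64 and -0.52 and not called (adjusted p = 0.379, 0.362 and 0.417). Both NkdΔ30aa libraries lay below both Nkd libraries for 5 members, where 27.5% of genes did so. The medians were -0.76 for NkdΔR1S and 0.28 for NkdΔD6, with 0 and 1 members at an unadjusted p under 0.05, the latter higher as in 2.78% of genes, and none called by DESeq2.

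A single test for any difference among the 5 groups called *sls* alone (adjusted p = 0.0117, edgeR), where 37.2% of all genes were called. *Mhc* was next at an adjusted p of 0.0993, and the other members ranged from 0.183 to 0.481. With DESeq2's likelihood ratio test 6 members passed, where 44.2% of the genes it tested did, *sls* at 1.17e-06, *Mhc* at 0.00246, *up* at 0.00721, *Tm2* at 0.0102, *Mlc1* at 0.0145 and *wupA* at 0.0180, and *Mlc2*, *Act57B* and *bt* did not.

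The muscle genes beyond the members fell on both sides of 0 in the NkdΔ30aa disks. The counts of calls against GFP in these lists stand beside 18.2% of all genes called higher and 12.8% called lower. Of the 7 thick filament genes, 6 were tested, and 2 of them were called lower and none higher. These were *Mf*, at -2.10 ± 0.66 (adjusted p = 0.0343), and *Mlp84B*, at -1.89 ± 0.56 (0.0243). *Mlp84B* is a LIM protein known from the Z disc but was listed with the thick filament. Its level was 7.15 and 5.66 CPM in GFP disks and 2.06 and 1.39 CPM in NkdΔ30aa disks, with no overlap. The list had a median of -1.58 with the 3 myosin members in it, all edgeR values here being set against a median of -0.13 over all genes.

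Of 14 thin filament genes, 10 were tested, with a median of -1.40, and the only call was a rise of *tmod*, tropomodulin of the pointed end, by 1.09 ± 0.23 (adjusted p = 0.00617). *Tm1*, the other tropomyosin gene, is also used in epithelia and had the highest level of the list, at a mean of 65.9 RPKM. It ran only from 553 to 670 CPM over the 10 libraries, and its r with the members was -0.26.

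Of the 13 Z disc and titin genes, all tested, 7 were called higher and none lower in the NkdΔ30aa disks, with a median of 0.72. Besides *sls*, these were *Msp300*, a giant nesprin, at 2.09 ± 0.21, *zormin* at 1.62 ± 0.22, *Zasp52* at 1.46 ± 0.17, *Actn* (α-actinin) at 0.81 ± 0.11, and the integrin subunits *mys* at 0.73 ± 0.13 and *if* at 0.72 ± 0.15. *Msp300*, with 69810 bases of exons, measured 24.5 and 24.9 CPM in GFP disks and 98.5 and 111 CPM in NkdΔ30aa disks. Integrins and α-actinin are not specific to muscle. Each of these 6 genes had a negative r with the members, from -0.28 for *Msp300* to -0.69 for *if*. With the length trend removed, an alternative chosen for these lists after the data had been seen, none of the 13 was called higher and 2 were called lower, *bt* and *Strn-Mlck*. Of all genes, 4.93% were called higher and 4.72% lower there. *Msp300* was then at -0.34, *zormin* at 0.15, *Zasp52* at 0.09 and *Actn* at -0.04.

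Of the 9 genes of calcium handling and energy supply, 5 were tested and 2 were called higher in NkdΔ30aa disks. *SERCA*, the calcium pump of the sarcoplasmic and endoplasmic reticulum, rose by 1.59 ± 0.19, from 87.2 and 113 CPM to 315 and 286 CPM, and *Itpr*, the calcium channel of the endoplasmic reticulum, by 1.63 ± 0.23. *RyR*, the release channel of striated muscle, had 0 to 9 reads in a library. *Argk1*, an arginine kinase, had the highest level of the list, at a mean of 297 RPKM, followed by *Stim* at 39.8, and neither was called. Of the 7 genes of muscle assembly, all tested, *how*, *rols* and *Mef2* were called higher, with *how* at 1.25 ± 0.26, *Mef2* at 0.70 ± 0.16 and *rols* between them, and the list's median was 0.57. *blow* had its highest level, at 53.3 RPKM, and was not called. With the length trend removed none of the calcium and energy, assembly or thin filament genes was called higher, where 4.93% of all genes were. *SERCA* was then at 0.40, *Itpr* at 0.26, *tmod* at -0.10, *how* at 0.46 and *Mef2* at -0.58. *Tm1*, *Argk1* and the myoblast fusion genes *kirre* and *sns* were called lower, where 4.72% of all genes were. *Mf*, at -2.98, and *Mlp84B* were still called lower against the same share (adjusted p = 0.0398 and 0.0257, edgeR).

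**Figure D5:**
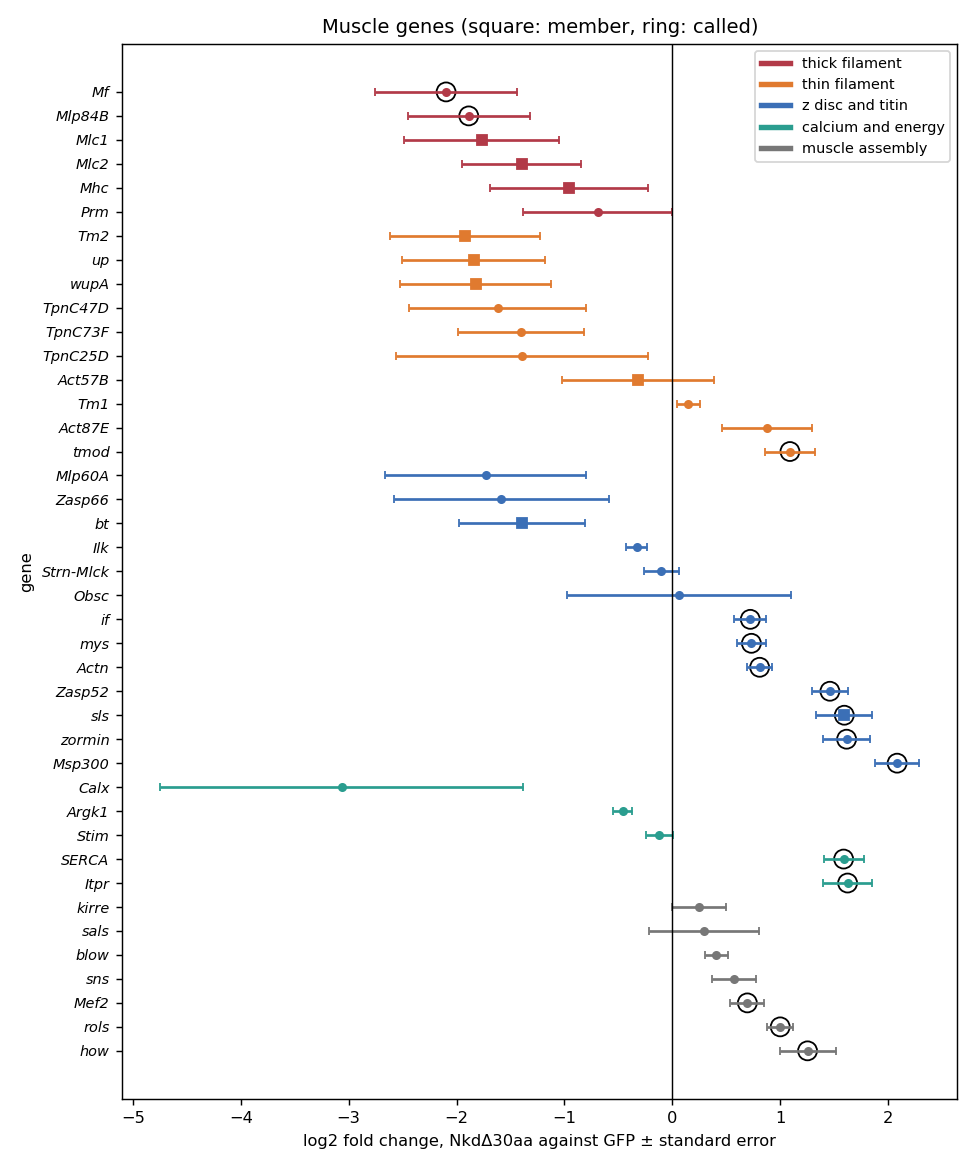
Fitted log2 fold change of all muscle list genes tested in NkdΔ30aa against GFP disks, with bars of 1 standard error, by list, with squares for members and rings on calls. The rings on thick filament genes lie left of 0, on *Mf* at -2.10 and *Mlp84B* at -1.89, and those of the other lists lie right of 0, up to *Msp300* at 2.09.

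In the NkdΔD6 disks, *Msp300* rose by 1.36 ± 0.20, *SERCA* by 1.34 ± 0.19, *zormin* by 0.96 ± 0.21, *Itpr* by 0.89 ± 0.23, *tmod* by 0.89 ± 0.23 and *Zasp52* by 0.84 ± 0.17, all called by edgeR with adjusted p between 0.00868 and 0.0275, and no other gene of the 5 muscle lists beyond the members was called, where 10.4% of all genes were called higher. With the length trend removed, *SERCA* alone of these 6 was called higher, at 0.59, where 544 of all genes were called in either direction. Both comparisons share the GFP libraries. Against Nkd, *Msp300*, *Itpr*, *zormin*, *SERCA* and *Zasp52* were called higher in NkdΔ30aa disks, at 1.90, 1.08, 1.06, 1.02 and 0.89, where 5.86% of all genes were, while *Mf* and *Mlp84B* were not called. None of the 5 was called there with the length trend removed.

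The muscle precursors of the disk were followed by 11 genes, all tested. Against GFP, 5 were called higher and none lower in NkdΔ30aa disks, *ct*, *zfh1*, *ap*, *htl* and *Mef2*, where 18.2% of all genes were called higher. *ct* was at 1.94 ± 0.33 and *htl* at 0.70 ± 0.16. *Him* at -0.33 ± 0.19 and *lms* at -0.57 ± 0.53 had negative estimates there. In NkdΔD6 disks 4 were called higher and 1 lower, *Him* at -0.78 ± 0.19 (adjusted p = 0.0204, edgeR), where 10.4% of all genes were called higher and 5.81% lower. In Nkd disks *htl* alone was called higher, where 3.05% of all genes were. *twi*, the transcription factor that defines them, measured 21.1 to 32.1 CPM over the 10 libraries and was not called in any comparison. The list's sum was 387 and 490 CPM in GFP disks and 685 and 672 CPM in NkdΔ30aa disks. *ap* and *vg* had the highest levels in it, with means of 147 and 159 CPM in GFP disks and 277 and 200 CPM in NkdΔ30aa disks. In the same groups, 12 wing disk genes summed to 1081 and 1403 against 2170 and 2178 CPM, with 9 of the 12 called higher, against 18.2% of all genes. With the length trend removed, none of the 11 precursor genes and 1 of the 12 wing disk genes was called higher, where 4.93% of all genes were. The precursor list then had 1 gene called lower, *kirre*, where 4.72% of all genes were. *ap* and *vg* are in both lists, and *Mef2* and *kirre* are also in that of muscle assembly. Whether the share of disk tissue in a sample has a part in the level of the contractile genes was not tested.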

How the data were processed

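RNA from about 70 wing disks per sample was sequenced in 10 libraries. The deposited values are raw counts per gene, which the authors made with featureCounts after HISAT2 2.2.1 alignment to BDGP6. They used DESeq2 for their own tests. How strand and multi-mapping reads were handled is not stated. The per-sample counts equalled the series table for all 10 libraries, and symbols were found for 17710 of 17807 IDs.

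Counts were tested with edgeR 4.0.16 in R 4.3.3 (quasi-likelihood F test with robust dispersions, TMM, filterByExpr by group, and p adjusted by Benjamini-Hochberg over 9264 genes) in 1 fit of all libraries with group as the only factor, leaving 5 residual degrees of freedom. The standard error was taken as the size of the log2 fold change divided by the square root of F. Likeness used log2 CPM with a prior count of 2, and replicate ratios over all genes a pseudocount of 0.1 CPM. Alternatives were RLE scaling, no filter, DESeq2 1.42.0, edgeR on the 4 libraries compared, a replicate block, offsets from a lowess of each library on gene length (span 0.3), the unadjusted p, and leaving out each library. Length offsets for the gene lists, and the alternatives for the *sls* difference between NkdΔ30aa and NkdΔR1S, were added after the data had been seen. The code was tested on simulated data.

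The members and the 14 gene lists were chosen with earlier results of these data known. Of 127 list entries 126 matched a gene, and *unc-45* was not used here. Named genes are the members, other muscle list genes called in a comparison or among the 2 highest mean RPKM of their list, *Act87E*, *Act88F*, *Act79B*, *fln*, *nkd* and the 10 genes most like the members. *TpnC4*, *RyR*, *salm*, *twi*, *Strn-Mlck*, *kirre*, *sns*, *Him*, *lms* and the called precursor genes were named after their values were seen. At 18695697 to 20941842 counts a library, the spread between samples rather than depth limits most values, except for *bt*.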

Additional observations from a re-analysis of the deposited data

Results flagged for a closer look

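Effects against GFP were compared between the groups that express Nkd, by edgeR tests of the difference that were chosen after the data had been seen. *sls* rose more in NkdΔ30aa than in NkdΔR1S disks, by 0.92 ± 0.26 on the log2 scale (adjusted p = 0.0268). Both NkdΔ30aa libraries, at 28.5 and 32.6 CPM, lay above both NkdΔR1S libraries, at 16.9 and 15.2 CPM. Counts of *nkd* also differed between these groups, at 1176 and 1498 against 345 and 512 CPM, and their part was not tested. The shares of all genes called or without overlap were not computed for this pair of groups. Against GFP, both libraries lay above in 20.9% of genes for NkdΔR1S and in 34.6% for NkdΔ30aa. With gene length offsets the difference reversed to -0.58 (adjusted p = 0.125) and was not called. It was also not called when any of the 4 libraries compared was left out, with values of 0.77 to 0.97 and adjusted p between 0.111 and 0.175.

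*Mhc* and *Act57B* lay above GFP in both NkdΔD6 libraries and below GFP in both NkdΔR1S and both NkdΔ30aa libraries. The test of the difference was not passed for either gene. Between NkdΔD6 and NkdΔR1S the difference was 2.61 ± 0.77 for *Mhc* (adjusted p = 0.107) and 1.39 ± 0.71 for *Act57B* (0.281), and between NkdΔD6 and NkdΔ30aa it was 2.18 ± 0.75 for *Mhc* (0.177) and 1.14 ± 0.71 for *Act57B* (0.372).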

How the results depend on the processing

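RLE scaling and no filter moved no count of members called and reversed no estimate. The number of members called against GFP became 1 for Nkd with DESeq2 and at an unadjusted p, 1 for NkdΔR1S at an unadjusted p, and for NkdΔ30aa 6 with DESeq2 and with the 4 libraries of the groups compared and 7 at an unadjusted p. For NkdΔD6 it was 0 with length offsets. The call for NkdΔD6 was also lost when replicate 1 of the GFP or of the NkdΔD6 disks was left out, in fits that called few genes of any kind. Against Nkd it was 5 for NkdΔ30aa with DESeq2 and at an unadjusted p, 0 to 3 when a library was left out, and 1 for NkdΔD6 at an unadjusted p. For any difference among groups it was 0 with length offsets, 6 with DESeq2 and 2 at an unadjusted p. It changed when an Nkd or NkdΔ30aa library was left out. The share of all genes was 37.2% in the main fit and 44.2% with DESeq2, and was not computed for the other settings.

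With length offsets the estimate reversed for *sls* in Nkd (-0.13), NkdΔR1S (-0.13), NkdΔ30aa (-0.71) and NkdΔD6 (-0.24) against GFP and in NkdΔ30aa (-0.58) and NkdΔD6 (-0.11) against Nkd, for *Mhc* in Nkd against GFP (-0.24) and for *bt* in NkdΔD6 against Nkd (-0.65). The difference of *sls* between NkdΔ30aa and NkdΔR1S, for which the alternatives were chosen after the data had been seen, reversed to -0.58. The summed level relative to the mean of the libraries, on the log2 scale, was -0.53 and -0.69 in the NkdΔ30aa libraries and became -0.65 and -0.88 as a mean of the log2 values of the members. The cause was not tested.

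Leaving out a library reversed estimates that had not been called. Against GFP, the lowest and highest values for Nkd were -1.16 and 0.95 for *Act57B*, -1.21 and 1.02 for *Mhc*, -1.03 and 0.86 for *Mlc1*, -0.92 and 0.41 for *Mlc2*, -1.24 and 0.97 for *Tm2*, -1.16 and 0.50 for *bt*, -1.19 and 0.95 for *up*, and -1.29 and 1.04 for *wupA*. For NkdΔD6 they were -0.079 and 0.86 for *Mlc1*, -0.14 and 0.50 for *Mlc2*, -0.25 and 0.094 for *bt*, -0.50 and 0.10 for *up*, and -0.34 and 0.19 for *wupA*. Against Nkd, those for NkdΔR1S were -1.46 and 0.66 for *Act57B*, -1.46 and 0.43 for *Mlc1*, -1.32 and 0.11 for *Mlc2*, -1.87 and 0.35 for *Tm2*, -0.68 and 0.98 for *bt*, -0.47 and 0.30 for *sls*, -1.88 and 0.26 for *up*, and -1.67 and 0.65 for *wupA*. Those for NkdΔ30aa were -1.26 and 0.85 for *Act57B* and -1.98 and 0.26 for *Mhc*. Those for NkdΔD6 were -0.077 and 2.05 for *Act57B*, -0.39 and 1.49 for *Mlc1*, -0.20 and 1.13 for *Mlc2*, -1.28 and 0.94 for *Tm2*, -0.57 and 1.09 for *bt*, -1.11 and 1.02 for *up*, and -1.12 and 1.20 for *wupA*.

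The labels do not say what the replicate numbers stand for, so whether they pair samples is unknown. Over all genes tested, the correlation of the replicate differences of 2 groups ran from -0.22 to 0.37 over the 10 pairs of groups. It was 0.24 for GFP with Nkd, 0.24 for GFP with NkdΔR1S and 0.37 for Nkd with NkdΔR1S. With the replicate number as a block, 6 members were called for NkdΔ30aa against GFP (*sls* higher and *Mlc1*, *Mlc2*, *up*, *wupA* and *Tm2* lower), where 2872 of the 9264 genes tested were called. For NkdΔ30aa against Nkd 1 member was called, where 674 of all genes tested were. For any difference 3 members were called, and the share of all genes was not computed. The block reversed the estimates in Nkd against GFP of *Mhc* (-0.039), *Act57B* (-0.038), *Mlc1* (-0.16), *up* (-0.074) and *Tm2* (-0.080), and that of *bt* in NkdΔR1S against Nkd (0.099).

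Depth limits *bt*, with 15 to 57 reads a library, and genes at a few reads such as *Act88F*. With 2 samples a group, differences within the spread of replicates were not detectable for most members.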
